A study of Mus musculus with 10 samples.

Results

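The 9 genes described here pattern the dorsal telencephalon or carry its cells toward glutamatergic neurons: Emx1, Emx2, Pax6, Lhx2, Neurog1, Neurog2, Eomes, Neurod1 and Tbr1. They were taken by gene symbol from a count table of 52632 genes, in which all 9 were found, each in 1 row. RNA was sequenced from 10 mouse neural stem cell cultures, each grown from the cortices of an embryo at embryonic day 14.5 as an adherent layer on laminin with EGF and FGF. Female cultures were Smchd1 GFP-E147A/+ (n = 2, litters 1 and 2) or Smchd1 +/+ (n = 2, both litter 3), and all 4 also carried XistdeltaA/+. Male cultures were Smchd1 GFP-E147A/+ (n = 3, litters 1, 1 and 3) or Smchd1 +/+ (n = 3, litters 4, 1 and 3). Every embryo had a Castaneus father and a 129/C57 F1 mother. The E147A allele also carried a GFP tag, so that tag and mutation cannot be told apart, and in females genotype cannot be told apart from litter. SMCHD1 binds chromatin and helps keep the inactive X chromosome and some clustered gene families silent, and the design sets E147A/+ against +/+ in each sex.

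In the embryo, the cortex forms from the dorsal wall of the telencephalon. Radial glial progenitors there express the transcription factors Lhx2, Pax6, Emx1 and Emx2, and the proneural factors Neurog1 and Neurog2 drive them toward neurons. Daughter cells then pass through a stage marked by Eomes (also called Tbr2), followed by Neurod1 and then Tbr1 as they become glutamatergic neurons. Neural stem cells kept in EGF and FGF divide in culture and often lose part of this regional program.

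Libraries held 20648916 to 44519020 counts, and levels are given as CPM, counts scaled to library sizes adjusted by TMM. Smchd1, read first as a check of the labels, had a log2 difference of -0.42 between E147A/+ and +/+ (SE 0.15), which did not pass edgeR's quasi-likelihood test (adjusted p 0.786). A total of 3 libraries stood apart from the other 7 over all genes: female E147A/+ 2, female +/+ 1 and male +/+ 3. Their scores on the first principal component, which held 32.6% of the variance, were 49.4, 58.3 and 82.0, against -52.4 to -3.65 in the others. On the second component, which held 24.7%, litter 1 cultures were at -40.9 to -33.2 and the litter 2 culture at -24.8. Those of litters 3 and 4 were at 21.0 to 75.1. Female +/+ 1 also held Y-linked counts at 1.72% of the male mean, where the other females held 0.0413% to 0.432%. In some chromosome windows of the 4 female libraries, reads were assigned almost wholly to the 129 allele although the labels give a Castaneus father, as set out with the allelic counts. Summed over 14 neural stem cell genes, led by Vim, Fabp7 and Tnc, every library had 5845 to 9354 CPM. Genes of other tissues summed to at most 0.402 CPM for microglia, 0.822 for choroid plexus, 0.276 for erythroid cells and 4.12 for endothelium, and to 6.01 to 32.4 for mesenchyme and pericytes.

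Levels between the members can be compared only per length, here in RPKM, CPM divided by the exon length in kilobases. Lhx2, a LIM homeobox factor, was at 18.4 ± 5.70 RPKM (SD, n = 10) and Emx2, an empty spiracles homeobox factor, at 14.7 ± 2.60, with overlapping ranges. Pax6, a paired-domain and homeobox factor, followed at 3.43 ± 0.759 RPKM, and its highest library (4.48) lay below the lowest for Emx2 (11.2). The annotated exons of Pax6 span 11694 bases over many isoforms, which lowers its value on this scale. Emx1, the other empty spiracles factor, had 0.862 ± 0.856 RPKM and the proneural factor Neurog2 had 0.714 ± 0.929. The postmitotic T-box factor Tbr1 was at 0.375 ± 0.327 RPKM and the neuronal bHLH factor Neurod1 at 0.352 ± 0.146. These 4 overlapped one another over libraries, and the SD of Emx1, Neurog2 and Tbr1 was close to the mean or above it. Eomes, the T-box factor of intermediate progenitors, had 0.0620 ± 0.0551 RPKM. Neurog1 had 1 count in female +/+ 2 and 0 in the other 9 libraries, and was the only member too low to test.

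**Figure D1:**
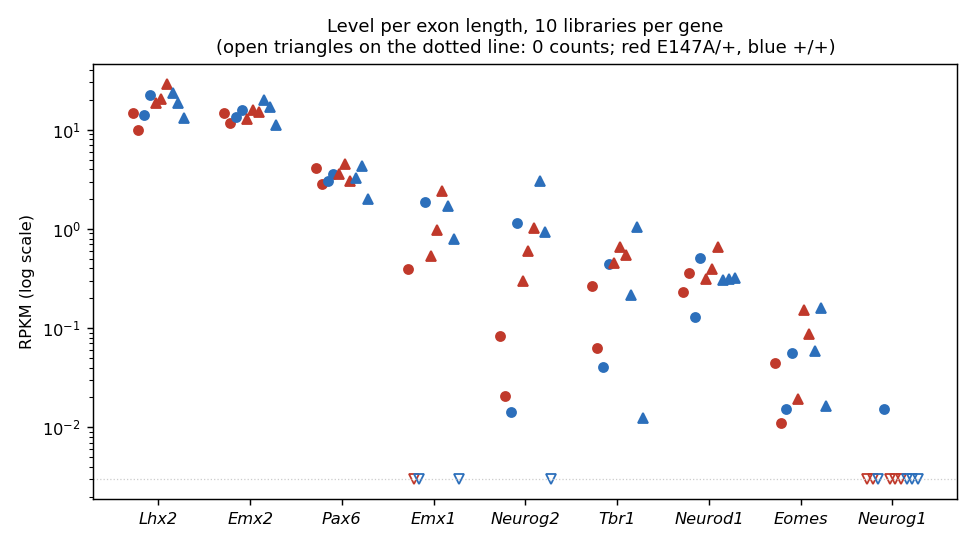
Level of each member in each library, in RPKM on a log axis, with members ordered by mean level; points are libraries by sex and genotype, and open triangles on the dotted line mark libraries with 0 counts. Lhx2, Emx2 and Pax6 lie above 2 RPKM in every library, while Emx1 and Neurog2 span from 0 counts to 2.39 and 3.03 RPKM.

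On GRCm38, the members are protein-coding genes spread over chromosomes 2, 3, 6, 9, 13 and 19. Lhx2 (ENSMUSG00000000247) lies at chr2:38339281-38369733, Pax6 (ENSMUSG00000027168) at chr2:105668900-105697364 and Tbr1 (ENSMUSG00000035033) at chr2:61802930-61814114, all on the plus strand, with Neurod1 (ENSMUSG00000034701) at chr2:79452521-79456751 on the minus strand. Emx2 (ENSMUSG00000043969) lies at chr19:59458372-59465357 and shares 264 exon bases with the antisense gene Emx2os, which had 68 to 296 counts. How strand was used in counting is not given in the sources used here, so part of the Emx2 count could come from its antisense partner. Emx1 (ENSMUSG00000033726) lies at chr6:85187438-85204462, Neurog2 (ENSMUSG00000027967) at chr3:127633135-127635631, Eomes (ENSMUSG00000032446) at chr9:118478212-118486132 and Neurog1 (ENSMUSG00000048904) at chr13:56250478-56252163.

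Sequences of 250 bases upstream of the start site are shown for 4 members, for a pair that was near 0 counts in some cultures (Neurog2 and Eomes) and a pair found in every culture (Lhx2 and Pax6). They come from RefSeq, build GRCm38.p6, where all 9 members were matched. They run 5′ to 3′ toward the start site, and capitals mark every CG pair and the motif TATATAA.
Neurog2, chr3:127632886-127633135, + strand: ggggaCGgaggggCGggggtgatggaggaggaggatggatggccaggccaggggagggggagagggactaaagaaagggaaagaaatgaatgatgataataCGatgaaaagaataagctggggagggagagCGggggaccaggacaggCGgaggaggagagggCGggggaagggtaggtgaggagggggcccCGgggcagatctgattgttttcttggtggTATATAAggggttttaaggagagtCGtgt
Eomes, chr9:118477939-118478188, + strand: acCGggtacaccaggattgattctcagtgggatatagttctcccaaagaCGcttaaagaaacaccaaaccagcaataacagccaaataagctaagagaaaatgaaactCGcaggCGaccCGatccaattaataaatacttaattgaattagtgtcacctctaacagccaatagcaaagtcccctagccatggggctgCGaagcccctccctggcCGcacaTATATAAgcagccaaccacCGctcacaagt
Lhx2, chr2:38339031-38339280, + strand: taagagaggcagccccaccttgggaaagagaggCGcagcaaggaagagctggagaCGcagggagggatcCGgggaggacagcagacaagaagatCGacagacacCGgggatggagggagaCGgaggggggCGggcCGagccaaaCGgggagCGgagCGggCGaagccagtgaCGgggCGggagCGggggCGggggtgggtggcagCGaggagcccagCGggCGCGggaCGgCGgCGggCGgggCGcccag
Pax6, chr2:105668646-105668895, + strand: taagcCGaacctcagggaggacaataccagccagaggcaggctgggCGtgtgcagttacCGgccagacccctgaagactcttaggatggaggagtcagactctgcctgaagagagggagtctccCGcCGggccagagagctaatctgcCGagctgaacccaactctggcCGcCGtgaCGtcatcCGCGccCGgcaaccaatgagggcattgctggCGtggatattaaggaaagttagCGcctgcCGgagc
The Lhx2 window held 25 CG pairs and the Pax6 window 15, against 8 in each of the Neurog2 and Eomes windows and a median of 6 over all 32851 promoters. The number of CG pairs did not follow the levels, since the window of Emx1, at 0 counts in 3 cultures, held 30 and that of Neurog1 held 29. The windows of Emx1, Emx2 and Tbr1 were annotated exon over all 250 bases. Their RefSeq starts lie 493, 318 and 1523 bases inside the genes. TATATAA stood 29 bases before the start of Neurog2, 30 before that of Eomes and 31 before that of Neurod1, and in no other member's window. Over all promoters of this length 3.04% held it on either strand. The motif was added after the windows had been read, and a match is only a run of letters, not a site shown to be used.

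Of the patterning factors of dividing progenitors, Lhx2, Emx2 and Pax6 were present in every culture, and Emx1 was not. Lhx2, needed for cortical fate, was at 64.4 and 44.1 CPM in female E147A/+ and at 61.6 and 97.2 in female +/+. In males Lhx2 was at 82.3, 90.2 and 128.4 CPM in E147A/+ and at 102.6, 81.8 and 57.3 in +/+. Its lowest libraries were female E147A/+ 2, male +/+ 3 and female +/+ 1, and the highest was male E147A/+ 3, with the genotypes overlapping in full. In bulk RNA such as this, fewer cells that express a gene and less of its RNA per cell cannot be told apart.

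Emx2, graded along the developing cortex, was at 43.9 and 35.1 CPM in female E147A/+ and 40.1 and 47.6 in female +/+. In males it was at 38.6, 47.7 and 45.6 CPM in E147A/+ and 59.7, 50.4 and 33.6 in +/+. The highest and the lowest library were both male +/+, so that group spanned the whole range. Pax6, which specifies cortical radial glia, was at 48.0 and 33.1 CPM in female E147A/+ and 35.6 and 42.2 in female +/+. In males Pax6 was at 42.3, 52.4 and 35.2 CPM in E147A/+ and 37.9, 50.7 and 23.5 in +/+. Male +/+ 3 was the lowest for Emx2 and Pax6, and no library lacked either gene.

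Emx1, which in the embryo is close to restricted to the cortical lineage, was not detected in 3 cultures. It had 0.855 CPM in female E147A/+ 1 and 0 counts in female E147A/+ 2, and 0 counts in female +/+ 1 and 4.06 CPM in female +/+ 2. Males had 1.15, 2.11 and 5.22 CPM in E147A/+ and 3.69, 1.74 and 0 in +/+. A count of 0 allows up to 3 counts, which is 0.069 CPM in female E147A/+ 2, 0.0955 in female +/+ 1 and 0.101 in male +/+ 3, for counting error only. Presence and absence therefore fell within genotypes, with 4 of 5 E147A/+ cultures and 3 of 5 +/+ cultures expressing Emx1.

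The proneural factor Neurog2, which turns on the glutamatergic program in cortical progenitors, was lowest in the same 3 cultures, with female E147A/+ 1 also low. It was at 0.185 and 0.0462 CPM in female E147A/+ (8 and 2 counts), and at 0.0318 (1 count) and 2.54 CPM in female +/+. In male E147A/+ it was at 0.670, 1.34 and 2.26 CPM, and in male +/+ at 6.76, 2.07 and 0. Male +/+ held both the highest and the lowest library. Its paralog Neurog1 was at or under the floor of 3 counts in every library, so no comparison was made for it.

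Eomes and Tbr1 mark later steps and were low throughout. Eomes had 8 and 2 counts in E147A/+ females, 2 and 9 in +/+ females, 3, 19 and 11 in E147A/+ males, and 7, 14 and 2 in +/+ males. The libraries with 2 counts were again female E147A/+ 2, female +/+ 1 and male +/+ 3, but male E147A/+ 1 had only 3, a margin within counting error. Tbr1, a factor of early-born cortical neurons, was at 1.46 and 0.347 CPM in female E147A/+ and 0.223 and 2.42 in female +/+. In males Tbr1 was at 2.47, 3.62 and 3.03 CPM in E147A/+ and 1.17, 5.77 and 0.0675 in +/+. The same 3 libraries were the lowest for Tbr1, and the other 7 had at least 1.17 CPM.

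Neurod1, which acts between Eomes and Tbr1 and in many neuron types, did not follow this order. Its female levels were 0.624 and 0.971 CPM in E147A/+ and 0.350 and 1.39 in +/+. Its male levels were 0.857, 1.07 and 1.80 CPM in E147A/+ and 0.828, 0.845 and 0.878 in +/+. Female +/+ 1 was the lowest library and male E147A/+ 3 the highest, and all 3 male +/+ cultures were within 0.05 CPM of one another. Neurod1 shares 201 exon bases with Cerkl on the same strand, which had at most 10 counts in a library.

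**Figure D2:**
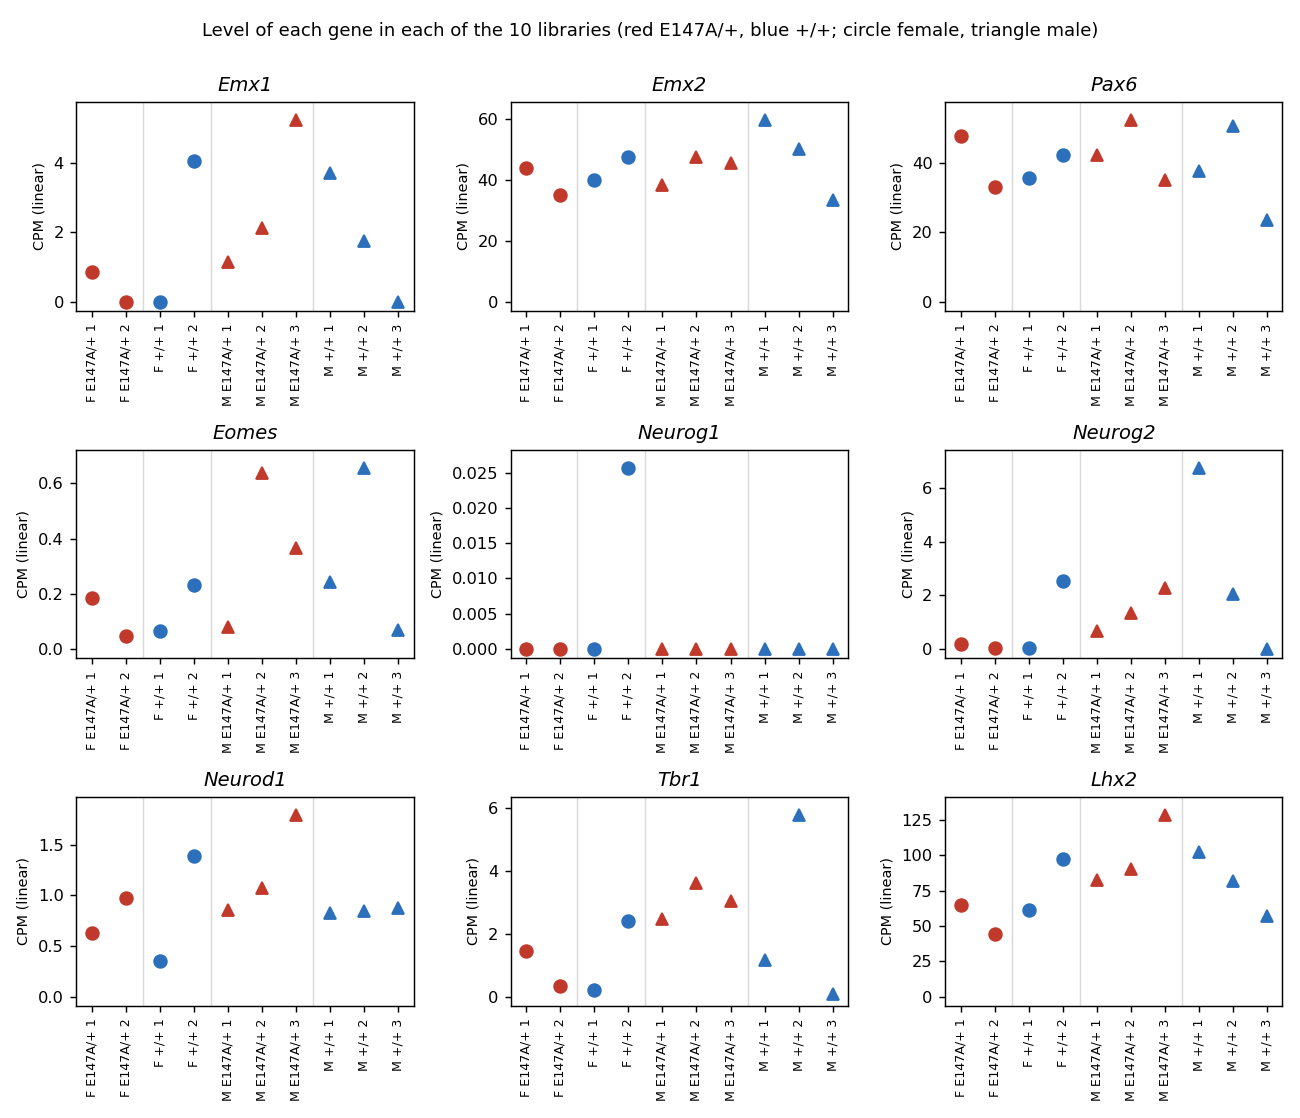
CPM of each member in the 10 libraries, a panel per gene with its own linear axis; libraries are along the x axis (F female, M male), red for E147A/+ and blue for +/+. In the panels of Emx1, Neurog2 and Tbr1, female E147A/+ 2, female +/+ 1 and male +/+ 3 sit at the bottom of their groups, while Emx2 and Pax6 stay above 20 CPM in every culture.

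By culture, Emx1 and Neurog2 were at or near 0, and Tbr1 and Eomes lowest, in female E147A/+ 2, female +/+ 1 and male +/+ 3. Emx2, Pax6, Lhx2 and, at its usual low level in 2 of them, Neurod1 were still found there. In each of these 3 libraries, 3 of the 8 tested members reached 1 CPM, namely Emx2, Pax6 and Lhx2. Emx2 and Pax6 were lowest in male +/+ 3 (33.6 and 23.5 CPM) and next lowest in female E147A/+ 2 (35.1 and 33.1). At the other end, 7 of 8 reached 1 CPM in female +/+ 2, male E147A/+ 2 and male E147A/+ 3. Male +/+ 1 and male +/+ 2 had 6, male E147A/+ 1 had 5 and female E147A/+ 1 had 4. The 3 cultures were the lowest 3 for 5 of the 8 tested members: Emx1, Neurog2, Tbr1, Eomes and Lhx2. Over all 17110 tested genes the same 3 were lowest for 1218 genes, or 7.12%, and highest for 1217, or 7.11%. The 3 libraries were picked out by how they stood over all genes and by Tbr1, so this count is a description and has no test.

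The 3 cultures came from litters 2, 3 and 3 and from both genotypes and both sexes. Litter 3 also held female +/+ 2 and male E147A/+ 3, whose Emx1 levels (4.06 and 5.22 CPM) were the highest in the series. The 4 cultures of litter 1, in contrast, all expressed Emx1, at 0.855 to 2.11 CPM. Litters 2 and 4 each gave 1 culture, so no spread within them can be given. The 4 cultures of litter 3 thus spanned a wider range of Emx1 than those of litter 1.

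Other genes of the region, grouped by list, were read over the same libraries. Of 15 other dorsal patterning genes 12 could be tested, and Dmrt3, Fezf2 and Sfrp1 were lowest in the same 3 cultures; these, and genes below that are not among the most abundant of a list, were chosen with their values known. Dmrt3, a dorsal progenitor factor, was at 0.0694, 0.350 and 0.203 CPM in female E147A/+ 2, female +/+ 1 and male +/+ 3, against 1.32 to 10.9 elsewhere. Sfrp1, a secreted Wnt modulator, was at 9.06, 14.5 and 9.25 CPM in them, against 19.6 to 53.7. The most abundant genes of that list, Nr2f1, Wnt7b and Gli3, were found in every library and did not share the order. Nr2f1 ran from 48.4 to 119.9 CPM, Wnt7b from 24.7 to 148.4 and Gli3 from 25.3 to 57.5.

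Of 17 tested later genes of the glutamatergic lineage, 5 had the same 3 cultures lowest: Neurod2, Neurod6, Slc17a6, Slc17a7 and Bcl11b. Neurod6, a bHLH factor of cortical neurons, was at 0.0925, 0.0318 and 0.169 CPM in female E147A/+ 2, female +/+ 1 and male +/+ 3, against 0.947 to 6.97 elsewhere. Slc17a6, a vesicular glutamate transporter, had 0 counts in all 3 and 0.348 to 1.73 CPM in the others. The most abundant genes of the list, Hes6, Cux1 and Btg2, are also used by dividing progenitors, and ranged over 78.5 to 184.3, 85.3 to 124.2 and 63.0 to 181.3 CPM. Among 10 neuron genes, Dcx, Stmn2 and Elavl3 were lowest in the 3 cultures, while Syt1, a synaptic vesicle protein, was highest, at 22.5, 21.7 and 33.4 CPM against 1.79 to 6.78. Of 14 stem cell genes, 3 were highest in the 3 cultures (Nes, Tnc and Fabp7), 1 was lowest (Msi1) and the other 10 were neither. Nes was at 1007, 958.7 and 1125 CPM in them against 545.5 to 790.4, and Fabp7 at 1271, 1271 and 1972 against 696.4 to 1235. Msi1 was at 38.1, 33.7 and 31.8 CPM against 41.2 to 59.5.

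Markers of other regions and cell types were read beside this order. The 20 ventral telencephalon genes, led by Olig1 and Olig2, summed to 2050, 1953 and 1887 CPM in female E147A/+ 2, female +/+ 1 and male +/+ 3 and to 1397 to 2034 in the others. Of 14 tested ventral genes 2 (Lhx6 and Gad2) were lowest in the 3 cultures and 1 (Ebf1) was highest. Ebf1 was at 18.4, 8.09 and 15.7 CPM in them, against 0.0690 to 2.70 in the others. The 7 mesenchymal and pericyte genes, led by Col3a1, Col1a1 and Col1a2, summed to 32.4 CPM in male +/+ 3, but to 27.0 in male E147A/+ 3, a culture with high cortical genes. The 20 genes of the diencephalon, midbrain and hindbrain, led by Barhl2, Otx2 and Gbx2, summed to 4.62 to 23.6 CPM. Female E147A/+ 2 was the highest, then female E147A/+ 1 at 15.1 and male +/+ 3 at 13.2, while female +/+ 1 had 9.01. Of 7 tested genes of that list 0 were lowest in the 3 cultures and 1 (Gbx2) was highest. Gbx2 was at 0.439, 0.923 and 5.84 CPM in them, against 0 to 0.416 in the others. The oligodendrocyte lineage genes, led by Cspg4, Pdgfra and Sox10, summed to 85.4, 177.7 and 103.9 CPM in the 3 cultures and 129.6 to 452.6 in the others. What part such cells play in the levels of the members was not tested.

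**Figure D3:**
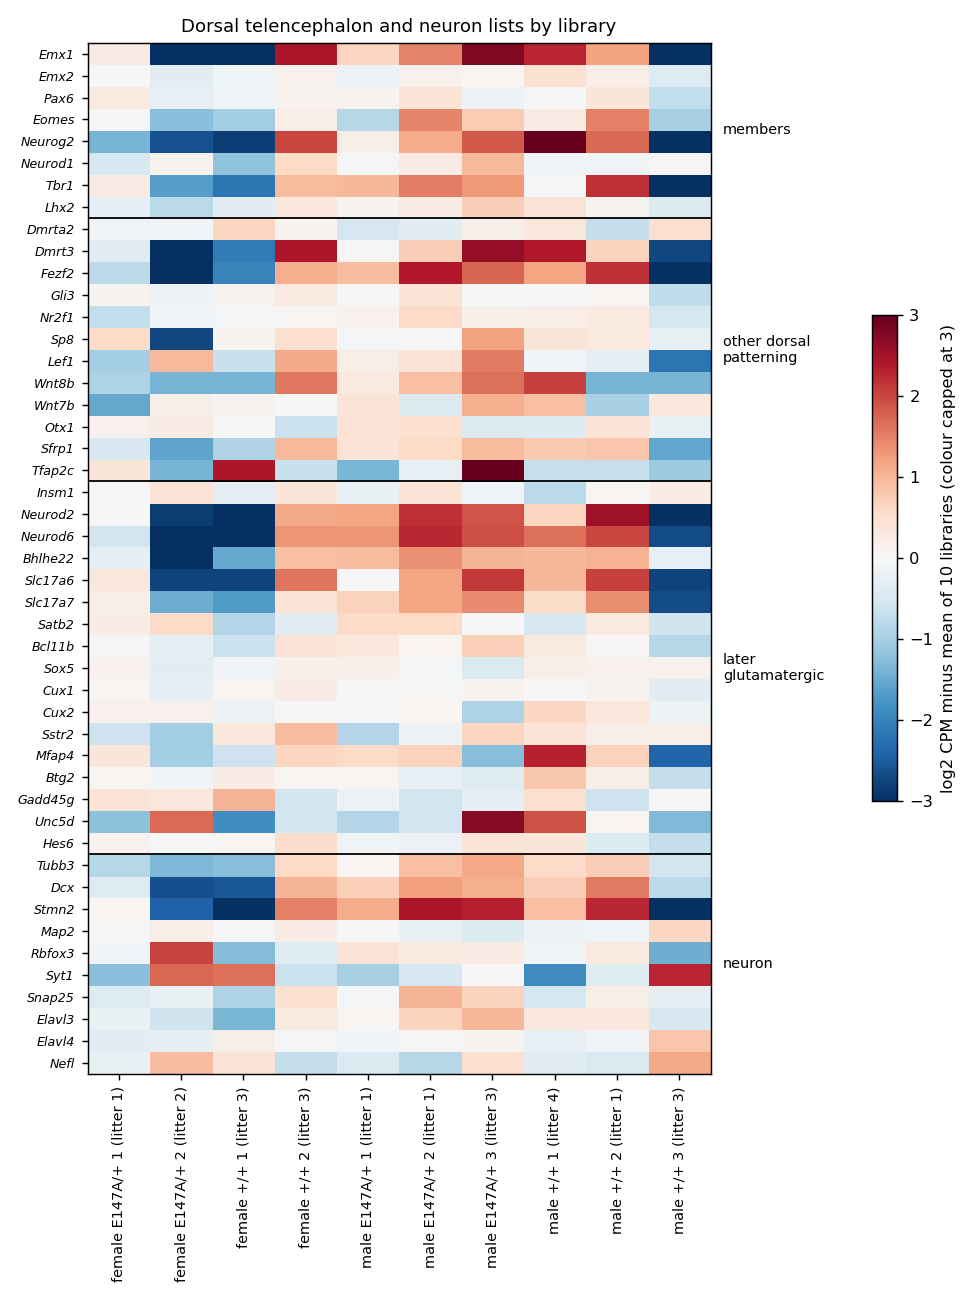
Level of the tested members and of tested genes of 3 other lists, as log2 CPM minus the gene's mean over the 10 libraries (color, capped at 3 either way), with libraries in columns and genes in rows grouped by list. Emx1, Neurog2, Tbr1, Dmrt3, Neurod2 and Neurod6 are lowest in female E147A/+ 2, female +/+ 1 and male +/+ 3.

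No tested member passed the threshold for an effect of genotype. E147A/+ was set against +/+ over both sexes, and the adjusted p from edgeR was under 0.05 for 0 of 8 members. The background was 14 of 17110 genes, or 0.0818%, too low a rate for a count of 0 among 8 genes to stand out. At an unadjusted p under 0.05 the count of members was also 0 in edgeR, DESeq2 and limma-voom, where 1010 of all genes reached it in edgeR. In edgeR that count was 1 of 9 without a filter and 1 of 8 without male +/+ 3. Over all genes, 1398 of 28370 and 921 of 17018 reached it in those fits. No member separated the genotypes without overlap; 246 genes, or 1.44% of those tested, did. The median log2 fold change of the members was -0.10, against -0.01 over all genes.

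The intervals around these changes were narrow for some members and wide for others. The log2 fold change over both sexes was -0.14 for Emx2 (SE 0.17, 95% confidence interval -0.53 to 0.25), whose mean was 42.2 ± 5.18 CPM in E147A/+ and 46.3 ± 9.98 in +/+ (SD, n = 5 each). It was -0.12 for Lhx2 (SE 0.22, interval -0.61 to 0.38) and 0.14 for Pax6 (SE 0.22, interval -0.36 to 0.64). For these 3 genes the intervals lie within a log2 change of 1 in either direction, and for the rest they do not. Neurog2 had the largest estimate, -2.25 (SE 1.25, interval -5.03 to 0.53, adjusted p 0.821 in edgeR), with 0.900 ± 0.913 CPM in E147A/+ and 2.28 ± 2.76 in +/+. Emx1 was at -0.80 (SE 1.34, interval -3.80 to 2.19), Tbr1 at -0.08 (SE 0.92), Eomes at -0.09 (SE 0.78) and Neurod1 at 0.21 (SE 0.44). The Neurog2 estimate rested on female +/+ 2: without that library it was 0.35. With the 3 libraries that stood apart left out, a setting added after the data were seen, 0 of 8 members passed as well.

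**Figure D4:**
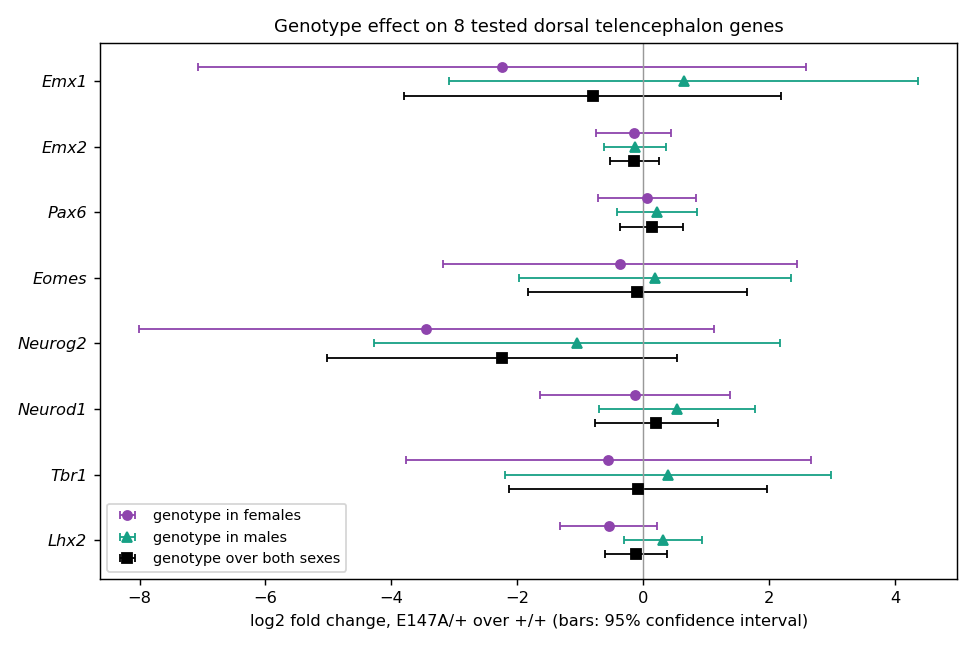
Log2 fold change of E147A/+ against +/+ for each tested member, by sex and over both sexes; points are edgeR estimates and bars their 95% confidence intervals. All intervals include 0, and those of Emx2, Pax6 and Lhx2 are narrower than those of Emx1, Neurog2, Tbr1 and Eomes.

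Within each sex the members gave the same picture. In females 0 of 8 passed, against 2 genes or 0.0117% of all tested, and in males 0 of 8 against 4 genes or 0.0234%. For both, the number of members at an unadjusted p under 0.05 was 0 in edgeR, DESeq2 and limma-voom, where edgeR had 4.36% of all genes in females and 3.44% in males, DESeq2 1011 and 748 genes, and limma-voom 1345 and 595. In females 7 of 8 estimates were below 0, with a median of -0.46 against -0.01 over all genes, and in males 6 of 8 were above 0, with a median of 0.27 against -0.02. The test of that difference between the sexes called 0 members and 0 of all genes (0%), with 0 members and 314 genes at an unadjusted p under 0.05 in edgeR, and DESeq2 called 0 members and 2 genes. Lhx2 came closest, with a difference of -0.86 (SE 0.44, p 0.0796, adjusted p 0.999 in edgeR). A separate comparison set the levels of females against those of males, as a mean over both genotypes. The log2 difference in level was below 0 for all 8 members, with a median of -0.86, but 0 of 8 passed, against 5 genes or 0.0292%. Unadjusted, 0 members were under 0.05 in edgeR and DESeq2 and 1 in limma-voom, where 1630 of 17110 genes were. Females and males share no control library, but 2 of the 4 female libraries are among the 3 with the lowest cortical genes.

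Litter was the other label that could be set against the members. In a fit with litter as a term, litter 3 against litter 1 called 0 of 8 members, against 19 genes or 0.111%; limma-voom also called 0 members, of 0 genes in all, and DESeq2 0, of 1187 genes in all. Pax6 was the only member at an unadjusted p under 0.05 in edgeR and DESeq2, with a log2 difference of -0.71 (SE 0.22, unadjusted p 0.0152, adjusted p 0.198 in edgeR), and none was in limma-voom. Over all genes 17% reached an unadjusted p under 0.05 in this edgeR comparison, so 1 of 8 members is no more than the background. Genotype could be compared within a litter in males only. In litter 1 the mean of 2 E147A/+ cultures differed from the 1 +/+ culture by -0.15 (log2) for Emx1, -1.07 for Neurog2, -0.94 for Tbr1 and 0.074 for Lhx2. In litter 3, with 1 culture each, E147A/+ was higher for the same genes, with 157, 68 and 91 counts of Emx1, Neurog2 and Tbr1 against 0, 0 and 2, so no fold is given for these, and by 1.16 for Lhx2. The direction thus differed between the litters for all of these but Lhx2, and male +/+ 3, a low culture, is the +/+ arm in litter 3. For Emx2 the differences were -0.23 and 0.44, for Pax6 -0.11 and 0.58, and for Neurod1 0.17 and 0.98.

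The spread between cultures of the same group separated the members into kinds. The within-group SD of log2 CPM was 2.86 for Emx1 and 2.55 for Neurog2, each above 99.9% of all tested genes, and 1.93 for Tbr1, above 99.3%. Among the 1000 genes nearest in level, those 3 were still at the 99.9th, 99.7th and 98th percentiles. Emx2 (SD 0.29), Pax6 (0.40) and Lhx2 (0.40) were near the median of all genes, 0.37, and at the 59.8th, 79.7th and 85.3th percentiles among genes of like level. Eomes had an SD of 1.11 and Neurod1 of 0.63, at the 73.5th and 42.1th percentiles among genes of like level. These percentiles are a description of the 10 libraries.

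Genes whose pattern over the libraries was most like each member's were taken among 12581 candidates, by Pearson's r of log2 CPM over the 10 libraries. For Tbr1 they were L1cam (r = 0.992), Gpc3 (0.987) and Mark1 (0.980), and L1cam, a neuronal adhesion protein, ran from 0.169 to 11.5 CPM. Those most like Emx1 were Tceal3 (0.988), Steap2 (0.988) and Aktip (0.985), and for Neurog2 they were Dok5 (0.974), Cacng7 (0.974) and Gas1 (0.969). Lhx2 was followed by Tvp23a (0.974), Ppp2r2c (0.968) and Gm45847 (0.968), and Emx2 by Abcg4 (0.965), H19 (0.943) and N4bp2l1 (0.940). Pax6 was most like 1700001O22Rik (0.957), Cox6b2 (0.947) and Gm7392 (0.936). Eomes was closest to Cnr1 (0.916), Tgfbrap1 (0.903) and Cryzl1 (0.875), and Neurod1 to Mmp24 (0.946), Gdap1 (0.937) and Fam136a (0.892). No gene was shared between these lists. The first and second principal components held 32.6% and 24.7% of the variance. With so many candidates and 10 libraries that share these large axes, high values of r describe these libraries only.

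Counts assigned to the 129 or the Cast allele were deposited for the 4 female cultures, where Cast alleles are paternal. Only Pax6 and Lhx2 had at least 10 allelic counts in all 4. Pax6 had a Cast share of 55.5% (95% Wilson interval 50.2 to 60.7) and 55.1% (49.2 to 60.9) in E147A/+, and of 46.3% (39.6 to 53.2) and 60.5% (54.4 to 66.3) in +/+. The genotypes overlapped for Pax6. Intervals of these shares cover counting error only. Lhx2 had 23.6% (20.5 to 27.0) in female E147A/+ 1, 45.8% (41.2 to 50.5) in female E147A/+ 2, and 48.8% (44.2 to 53.4) and 50.9% (47.5 to 54.2) in female +/+. The first of these stood below the others.

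Neighboring genes were read as a background for these shares, from all genes within 2 Mb that had 20 allelic counts or more in each of the 4 cultures. In female E147A/+ 1, the 17 neighbors of Lhx2 had a median Cast share of 0.37%, with 2 above 10% and the highest at 43.6% (Gm13436). In the other 3 female cultures their median was 47.1% to 51.8%. Around Pax6 the median of 17 neighbors was 48.2% to 52.7% in all 4. Of the 36 windows (9 members in 4 cultures), 7 had a median under 5%. They lay around Lhx2, Tbr1 and Neurod1 in female E147A/+ 1, around Neurog1 in female E147A/+ 1 and female +/+ 2, and around Emx1 in female E147A/+ 2 and female +/+ 1. These windows go against the equal parental share that the stated cross would give, and how alleles were assigned is not given in the sources used here.

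The windows around Emx1 and Neurog2 can be set beside the levels. Emx1 itself had 0 allelic counts in all 4 cultures. The median share of its 36 neighbors was 2.15% in female E147A/+ 2 and 3.42% in female +/+ 1, both without Emx1 counts, and 46.1% and 46.9% in the other pair, where Emx1 was found. This relation over 4 cultures was noticed in the data, and its part in the level of Emx1 was not tested. Around Neurog2 the median of 11 neighbors was 17.6% and 52.7% in E147A/+, and 23.4% and 51.2% in +/+, which did not follow the level of Neurog2. In female +/+ 2, Neurog2 had a Cast share of 40.0% (26.3 to 55.4, from 40 allelic counts) and Tbr1 of 42.9% (21.4 to 67.4, from 14), so both parental alleles were read there. For Emx2, Eomes, Neurog1 and Neurod1 there were at most 5 allelic counts in a library, and no share is read from them.

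**Figure D5:**
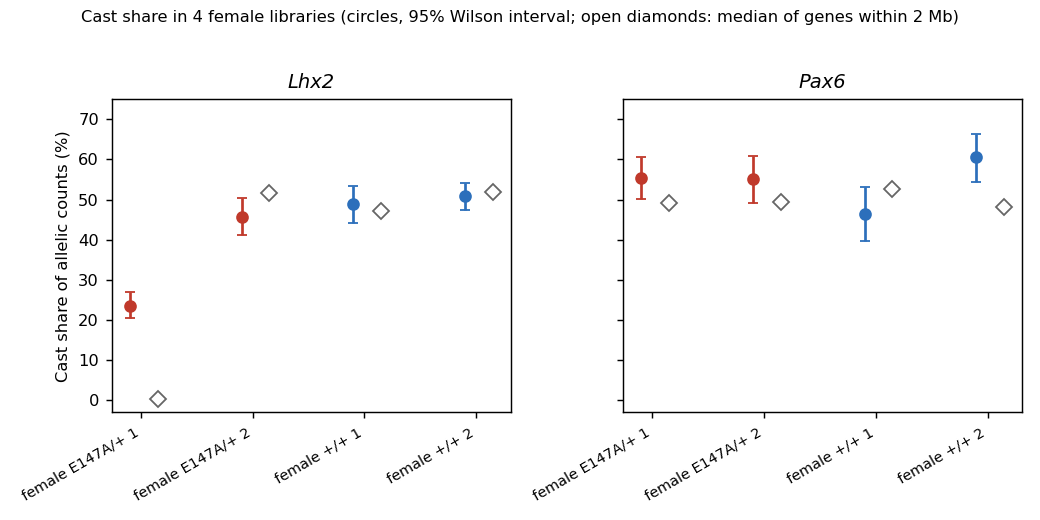
Share of allelic counts from the Cast allele, in percent, for Lhx2 and Pax6 in the 4 female libraries (red E147A/+, blue +/+); circles are the gene with its 95% Wilson interval and open diamonds the median of genes within 2 Mb. Lhx2 in female E147A/+ 1 lies at 23.6% with its neighbors at 0.37%, and the other Lhx2 circles lie between 45.8% and 50.9%.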

How the data were processed

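Raw counts of reads per gene were deposited by the authors for 10 stranded poly(A) libraries, and counts per allele for the 4 from females. The submitters' processing notes name Trim Galore 0.4.4, HISAT2 2.0.5, R 3.5.1, featureCounts, edgeR 3.24.0 and GRCm38/mm10, without roles. How strand was used in counting, and how reads were assigned to alleles, is not given in the sources used here. Titles gave the sex and genotype of each library.

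Genes kept by filterByExpr (17110 of 52632) were scaled with TMM factors. The test was the quasi-likelihood F test of edgeR 4.0.16 (R 4.3.3), with 1 mean per group over 10 libraries and 6 residual degrees of freedom. Benjamini-Hochberg adjustment ran over all tested genes, with a threshold of 0.05. The p-values measure the spread between embryos' cultures. RPKM used the union of GENCODE exons. Depth was 20648916 to 44519020 counts, and 3 counts was the floor. No replicate pair agreed within sampling noise (chi-square per gene 33.9 to 193.1).

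Alternatives were RLE, DESeq2 1.42.0, limma 3.58.1 voom with quality weights, other filters, only the groups compared, litter, a replicate block, leaving out each library, other scalings and other minimums of allelic counts. Counts were also simulated for genotype over both sexes (16733 genes). The test found 96 of 100 genes set to differ by 3 on the log2 scale. It found 45 of 100 set to differ by 1, and made 8 false calls. These rates pool the changed genes and were not split by level or by spread between cultures. They are therefore not rates for members as variable as Emx1 and Neurog2, whose SEs in this comparison were 1.34 and 1.25.

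The members and lists were chosen with earlier results of these data known. Named genes are the members, Smchd1, the 3 most abundant genes of a list, the genes of a list past the threshold, the 3 genes most like each member, and genes said to be chosen after their values were seen. A few listed genes are not reported here.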

Additional observations from a re-analysis of the deposited data

How the results depend on the processing

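The count of 0 members called held in the 6 comparisons under each alternative run for them and without each library in turn; the litter comparison was not run with only the groups compared, with the block or without the 3 libraries that stood apart. These fits tested 8 members, except 9 without a filter, 4 with 10 counts in every library and 6 with only the female groups compared. With 10 counts required, Emx1, Neurog2, Tbr1 and Eomes were left out. Single log2 fold changes, all short of the threshold, turned in direction as follows. With litter as a covariate, Emx1 was 0.23, Lhx2 0.18 and Pax6 -0.11 over both sexes, Neurod1 was 0.074 and Pax6 -0.41 in females, and Emx2 was 0.053 and Neurog2 0.78 in males. With limma-voom, Eomes was -0.80 in males, Neurod1 0.075 in females and Tbr1 0.13 over both sexes. Without the 3 libraries that stood apart, which leaves 1 library in each female group, Neurod1 was -0.29 over both sexes, and Eomes was -0.31, Pax6 -0.033 and Tbr1 -0.19 in males. With the replicate block, Neurod1 was 0.12 in females and Tbr1 0.65 over both sexes, and 0.10 and 0.64 with the female numbers crossed. The numbers do not pair the libraries (correlation of deviations -0.30 in females, -0.24, 0.42 and 0.03 in males), and over all genes 5 passed with the block and 6 crossed, against 14. Causes of these turns were not tested.

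Leaving out each library in turn, estimates over both sexes ran from -4.20 to 3.73 for Emx1, -0.71 to 0.50 for Eomes, -0.26 to 0.066 for Lhx2, -0.12 to 0.86 for Neurod1, -2.87 to 0.35 for Neurog2 and -0.77 to 1.19 for Tbr1. In females they ran from -9.05 to 6.82 for Emx1, -0.32 to 0.015 for Emx2, -1.62 to 0.82 for Eomes, -0.80 to 1.18 for Neurod1, -4.71 to 1.74 for Neurog2, -0.23 to 0.32 for Pax6 and -1.93 to 2.00 for Tbr1. In males they ran from -0.15 to 1.73 for Emx1, -0.33 to 0.065 for Emx2, -0.51 to 1.19 for Eomes, -1.64 to 0.49 for Neurog2, -0.032 to 0.50 for Pax6 and -0.19 to 2.29 for Tbr1. The highest values over both sexes of Emx1, Eomes, Lhx2, Neurod1, Neurog2 and Tbr1 came without female +/+ 2, and fits that leave a group with only 0 counts of Emx1 give no bound on its fold. A group left with 1 library was assumed to vary like the other groups.

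Over all genes, DESeq2 called 113, 44 and 46 genes over both sexes, in females and in males, against 14, 2 and 4, and 1187 between litters 3 and 1, against 19. Without a filter 33, 8 and 14 were called, and 1407 between the litters. Limma-voom called 29, 2 and 9, and 0 between the litters. Litter as a covariate left 3, 0 and 2, and leaving out each library in turn 2 to 12, 0 to 2 and 1 to 4, and 0 to 19 between the litters. Without the 3 libraries that stood apart 4, 1 and 5 passed. The number of libraries with at least 1 CPM of each member did not change under 2 other scalings, nor did the 2 members with an allelic share when 20 or 50 allelic counts were required. Depth limits Eomes, with 2 to 19 counts, and Neurog1, with at most 1. Wilson intervals and floors cover counting error only, while the confidence intervals of fold changes include the spread between cultures.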

Other observations

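A few genes of neighboring brain regions, picked out with their values known, had their highest levels in both female E147A/+ cultures. Dlx2, a homeobox factor of the ganglionic eminences, was at 2.54 and 4.37 CPM there and at 0.0338 to 0.904 in the others. Dlx1 was at 4.67 and 5.66 CPM against 0.0338 to 1.69, and Six3, a forebrain homeobox factor, at 14.1 and 13.0 against 0 to 1.84. Otx2, a factor of the anterior brain, was at 10.2 and 13.4 CPM against 0 to 1.34. None reached an adjusted p under 0.05 in edgeR, where the unadjusted p in females was 0.00218 for Dlx2 and 0.00401 for Otx2. Of 14 tested ventral genes 6 had an unadjusted p under 0.05 in females, against 4.36% of all tested genes. Litter and genotype cannot be told apart in these females. In the same pair, Emx2 and Pax6 were at 43.9 and 48.0 CPM in female E147A/+ 1 and at 35.1 and 33.1 in female E147A/+ 2.

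Over both sexes, Gpr17, a receptor of the oligodendrocyte lineage, was the only gene of the lists that passed (adjusted p 0.0249 in edgeR), and it was lower in E147A/+. It had 2, 2, 2, 4 and 0 counts in the 5 E147A/+ libraries, of which 4 lie at or under the floor of 3 counts, and 0.955 to 4.62 CPM in +/+, so no fold is given.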
